A study of Mus musculus with 37 samples.

Results

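Diabetic podocytes of the type 2 model at 6 months of age were set against diabetic podocytes of the same model at 3 months. The comparison holds 3 libraries at 6 months and 5 libraries at 3 months, chosen by their labels alone, which is 8 of the 37 libraries of the series. Both diabetic groups are eNOS-/- db/db mice on a C57BL/6 background, which lack the endothelial nitric oxide synthase and carry the db mutation of the leptin receptor, a cause of obesity and type 2 diabetes. The control groups of the same ages are eNOS-/- mice without the db/db genotype, with 4 libraries at 6 months and 5 libraries at 3 months. All 4 groups therefore lack eNOS, and no group with an intact eNOS gene was used here. RNA was captured by translating ribosome affinity purification (TRAP), in which a tagged ribosomal protein in one cell type allows the RNA on its ribosomes to be pulled out of whole tissue. The name given to the deposited tables points to a Cre recombinase under a podocyte promoter, which would limit the tag to cells in which that promoter is or has been active. The labels do not say whether the libraries of a group come from separate animals, and a p-value then covers the library-to-library spread, which may be technical. Age and time spent with diabetes rise together between the diabetic groups and cannot be told apart there, and the controls show age alone.

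Podocytes are epithelial cells that cover the glomerular capillaries from outside. Their interlocking foot processes are joined by the slit diaphragm, built from nephrin and its partners, and rest on a basement membrane of laminin and type IV collagen. Diabetic kidney disease is known for flattened foot processes, a thickened basement membrane, leakage of protein into urine and loss of podocytes, which the body hardly replaces.

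Total counts were 22331040, 17625244 and 6702120 in the 6-month diabetic libraries 1 to 3, and 14866828 to 37786025 in the 3-month diabetic libraries. The 9 control libraries held 16916596 to 29486283 counts. The 6-month library 3 had the lowest total, and its lowest correlation of log2 CPM with another library of its group was 0.87, against at least 0.935 between any 2 libraries at 3 months. On the first principal component of the 17 libraries, which held 36.7% of the variance, the 6-month diabetic libraries 1 to 3 lay at -77.7, -36.8 and -183. The 3-month diabetic libraries 4 and 5 lay at -51.7 and -26.6, on the same side as the 6-month group, while the 3-month libraries 1 to 3 lay at 21.8 to 40.7 and the controls at 18.7 to 45.7. Counts of calls without these libraries stand beside the results below.

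Between 6 and 3 months, 2043 of 17180 genes tested (11.9%) were called in diabetic podocytes at an adjusted p under 0.05 with edgeR's quasi-likelihood test. Of these, 900 were higher at 6 months (5.24% of genes tested) and 1143 were lower (6.65%), with 492 higher and 466 lower by at least 2-fold. At least a 4-fold change was found for 124 higher and 105 lower genes. Of the genes called lower, 44 had no count in any 6-month diabetic library, and no fold is given for them singly. The counts of genes lower by at least 2-fold and 4-fold use the fitted log2 change and do not leave these genes out. The libraries of both ages did not overlap for 360 of the genes called higher and 650 of those called lower, where 4.41% and 6.22% of all genes tested did not overlap in those directions. An unadjusted p under 0.05 was found for 5322 genes (31%), 2374 of them higher (13.8%) and 2948 lower (17.2%). The median log2 change over all genes was -0.03 and its median size was 0.47.

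These calls depended on which libraries entered the fit. Leaving out the 6-month library 3 left 50 genes called, and 46 of the 2043 were among them. In that fit 2041 of the 2043 genes had the same sign and 1824 had an unadjusted p under 0.05, and the median size of their log2 change was 0.71, against 0.96 with the library. These genes were chosen in a fit that shares all the other libraries, so like signs and small unadjusted p values were largely built in. The 6-month library 3 was the farthest from the 3-month group in 80.5% of the genes called, and the 3-month library 4 or 5 lay nearest to the 6-month group in 89.9% of them. Leaving out the 3-month libraries 4 and 5 gave 4709 calls, and leaving out all 3 of these libraries gave 3398, of which 1683 were among the 2043. Libraries 4 and 5 were the 3-month libraries nearest to the 6-month group, so leaving them out widens the difference by construction. Counts from fits without them, here and in the lists below, are therefore no independent check. Leaving out the 3-month library 1, 2 or 3 gave 477 to 583. A fit of the 8 diabetic libraries alone, without the controls' share in the estimate of the spread, called 0 genes with 3464 at an unadjusted p under 0.05 and a lowest adjusted p of 0.165. DESeq2 called 3453 genes with all libraries and 814 without the 6-month library 3. Of the 38 gene lists described below, 30 had a called member with all libraries and 3 without the 6-month library 3, which were podocyte identity, fatty acid genes and tubular injury markers. The calls reported for every other list therefore ended without that library. List counts below stand against 5.24% of all genes called higher and 6.65% called lower with all libraries. Without the 6-month library 3 and the 3-month libraries 4 and 5, 1659 genes were called higher and 1739 lower of 17512 tested. Without the 3-month libraries 4 and 5 alone, 2388 were called higher and 2321 lower of 16774. DESeq2 called 1628 higher and 1825 lower of 17180 with all libraries, and 228 higher and 586 lower without the 6-month library 3.

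**Figure D1:**
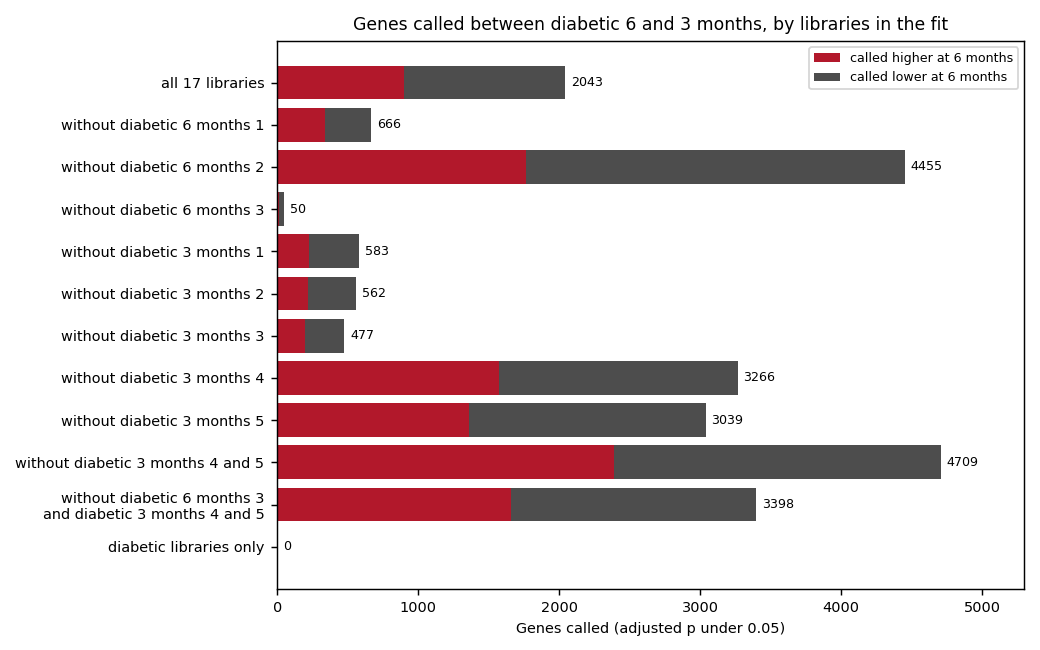
Number of genes called at an adjusted p under 0.05 between diabetic podocytes at 6 and at 3 months (x axis) for fits that leave out the libraries named on the y axis, split into genes higher (red) and lower (grey) at 6 months. The count was 2043 with all 17 libraries, 50 without the 6-month library 3, 4709 without the 3-month libraries 4 and 5, and 0 in the diabetic libraries alone.

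Calls were counted by enrichment on podocyte ribosomes, taken as the ratio of control TRAP libraries at 3 months to the whole-kidney library. Among 633 genes enriched at least 4-fold in TRAP over kidney, 232 (36.7%) were called lower and 2 (0.316%) higher at 6 months in diabetic podocytes, with a median log2 change of -0.83. Among 8693 genes lower in TRAP than in kidney, 356 (4.1%) were called lower and 618 (7.11%) higher, with a median of 0.16. The libraries of this ratio are not in the diabetic comparison, and the kidney library is a single one. The 2 enriched genes called higher were Lif, a cytokine of the interleukin 6 family, and Sptb, a spectrin chain, both named after their values were seen. In the controls, the same 633 genes had a median log2 change of -0.03 between 6 and 3 months.

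Genes of podocyte identity were lower at 6 months. Of 40 listed members tested, 21 were called lower and none higher, with a median log2 change of -1.05 against -0.03 over all genes. The most certain fall was in Magi2 (chr5:19227036-20704792 on GRCm38), a scaffold protein beneath the slit diaphragm. It had 137, 224 and 79.2 CPM (TMM-normalised read counts scaled to library size) in the 6-month diabetic libraries 1 to 3, against 663, 697, 722, 300.1 and 380 CPM in the 3-month diabetic libraries 1 to 5 (log2 change -1.91 ± 0.31, adjusted p = 0.00868). Throughout, the ± of a log2 change is an SE from the fit, whose spread was estimated over all 17 libraries, controls included. Each diabetic change sets 3 libraries against 5, and each control change 4 against 5. All 6-month values lay below all 3-month values, and the 3-month libraries 4 and 5 were the lowest of their group. Magi2 was the only listed podocyte gene still called without the 6-month library 3, with a log2 change of -1.61 and an adjusted p of 0.0389.

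Nephrin, the chief adhesion protein of the slit diaphragm, showed the same order of libraries. Nphs1 (chr7:30458315-30487223) had 338, 438 and 104 CPM in 6-month diabetic podocytes, against 1030, 1124, 1140, 481 and 634 CPM in 3-month diabetic podocytes (log2 change -1.59 ± 0.37, adjusted p = 0.0187). The groups did not overlap, and the log2 change without the 6-month library 3 was -1.19 (adjusted p = 0.0873). Ptpro, a receptor tyrosine phosphatase of the podocyte's apical surface, had 237, 386 and 88.3 CPM at 6 months, against 903, 939, 1156, 638 and 468 CPM at 3 months (log2 change -1.79 ± 0.38, adjusted p = 0.017). Robo2, a guidance receptor that binds the nephrin complex, had 134, 239.8 and 81.7 CPM at 6 months, against 498, 415, 476, 341 and 257 CPM at 3 months (log2 change -1.39 ± 0.29, adjusted p = 0.0151). For both genes every 6-month library was below every 3-month library.

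Some further podocyte genes were called lower although the ages overlapped. Podxl, the negatively charged sialomucin that keeps foot processes apart, had 3058, 4476 and 982 CPM at 6 months, against 8140, 8780, 9175, 4368 and 4742 CPM at 3 months (log2 change -1.31 ± 0.39, adjusted p = 0.0358). Here the 6-month library 2 lay above the 3-month library 4. Wt1, the transcription factor that maintains the podocyte state, had 601, 1099 and 173 CPM at 6 months, against 1693, 2071, 2217, 906 and 862 CPM at 3 months (log2 change -1.31 ± 0.42, adjusted p = 0.0498), with the groups overlapping. Synpo, the actin-binding protein of foot processes (log2 change -1.17 ± 0.37, adjusted p = 0.0451), and Ddn, the postsynaptic and podocyte protein dendrin (-1.24 ± 0.27, adjusted p = 0.018), were also called lower with overlap.

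The other podocyte members called lower were Thsd7a, Mapt, Plce1, Arhgap24, Enpep, Clic5, Dach1, Ildr2, Cdkn1c, Kirrel, Nebl, Cd2ap and Crb2. Of these, Thsd7a, Plce1, Enpep, Clic5 and Nebl did not overlap between the ages, with log2 changes of -1.72, -1.25, -1.47, -1.28 and -1.57. The log2 changes of all 21 members called lay between -1.91 and -0.65. Of the 19 members not called, 17 had a negative log2 change, and Trpc6, a calcium channel, had 0.46 (adjusted p = 0.545) and Pla2r1, a phospholipase receptor, 0.97 (adjusted p = 0.207). The count of members called lower was 1 without the 6-month library 3, 30 without the 3-month libraries 4 and 5, 30 without all 3, and 29 with DESeq2 or 15 with DESeq2 without the 6-month library 3. Over all genes tested, 2321 of 16774 were called lower without the 3-month libraries 4 and 5, and 1739 of 17512 without all 3. DESeq2 called 1825 of 17180 lower, and 586 without the 6-month library 3. The summed level of the list was 19900, 30580 and 8658 CPM in the 6-month diabetic libraries, against 48000, 52780, 50160, 28300 and 32750 CPM in the 3-month diabetic libraries. In bulk RNA of this kind, fewer cells of a type and less RNA per cell cannot be told apart. Whether the yield of the ribosome capture differed between libraries was not tested.

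**Figure D2:**
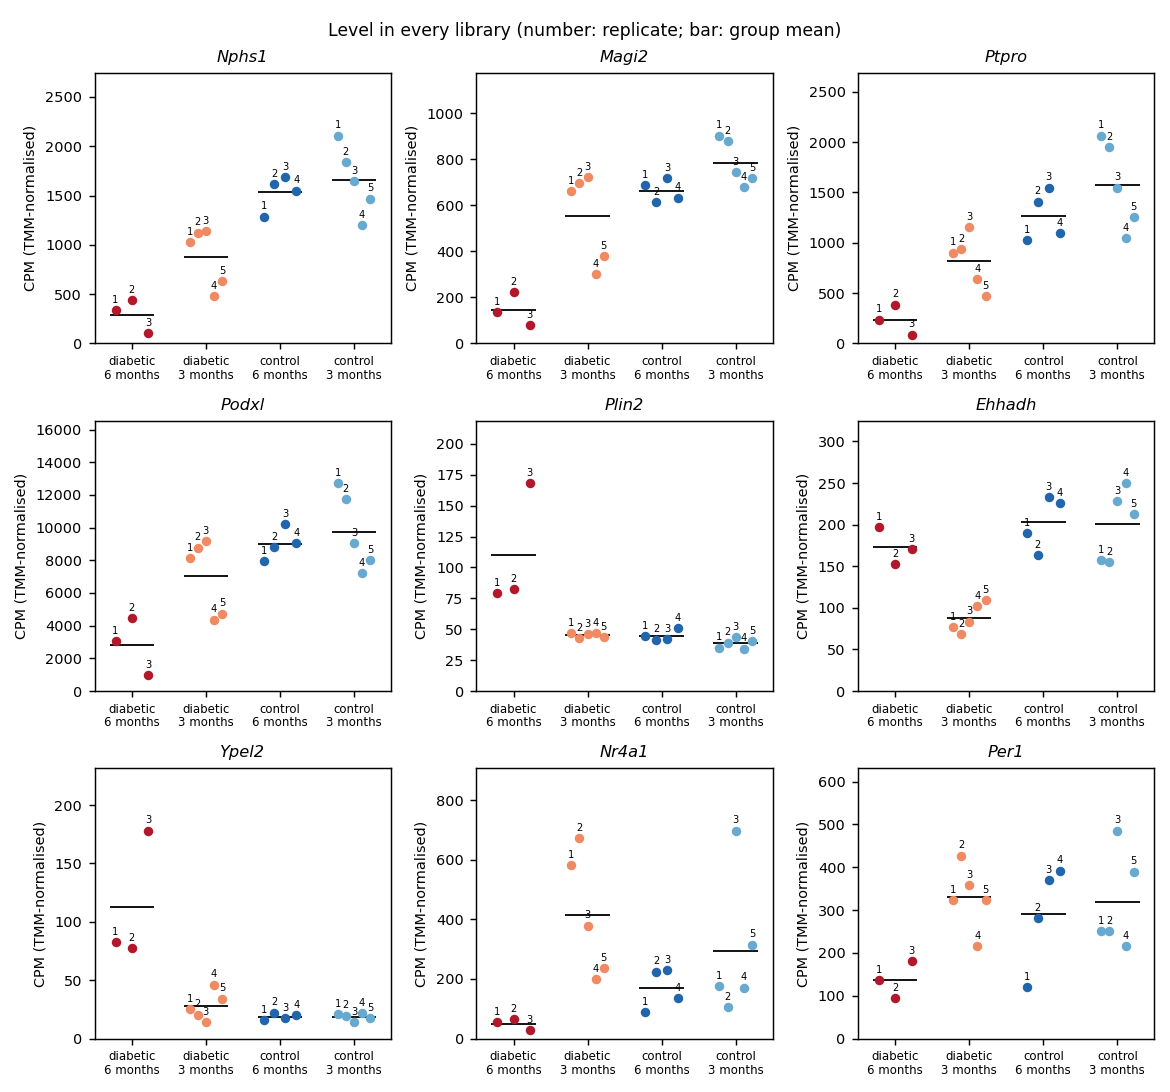
Level in CPM (y axis, starting at 0) of 9 genes in every library of the 4 groups, diabetic at 6 and 3 months and control at 6 and 3 months, with replicate numbers beside the points and a bar at each group's mean. Nphs1, Magi2 and Ptpro are lower in all 3 diabetic libraries at 6 months than in any at 3 months, and Plin2, Ehhadh and Ypel2 are higher.

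The glomerular basement membrane and its receptors moved in both directions. Of 24 members tested, 4 were called higher and 6 lower. The higher members were Lama5, the laminin chain of the mature membrane, Lamb1, a laminin chain of the developing membrane and of mesangial matrix, Hspg2, the heparan sulfate proteoglycan perlecan, and Ddr1, a collagen receptor. Lamb1 had 252, 161 and 363 CPM at 6 months, against 85.3, 90.2, 86.5, 152 and 183 CPM at 3 months (log2 change 1.12 ± 0.27, adjusted p = 0.0202), and the 6-month library 2 lay within the 3-month range. The lower members were the mature collagen chains Col4a3 and Col4a5, nephronectin (Npnt), dystroglycan (Dag1), and the podocyte integrin chain Itga3 with its tetraspanin partner Cd151. Npnt had 351, 409.8 and 189.9 CPM at 6 months, against 759.7, 778, 857, 496 and 516 CPM at 3 months (log2 change -1.10 ± 0.25, adjusted p = 0.0187), with no overlap. Col4a5 had 55.7, 76.9 and 31.9 CPM at 6 months, against 105, 139, 126, 97.1 and 79.3 CPM at 3 months (log2 change -0.99 ± 0.25, adjusted p = 0.0228), also with no overlap. No member was called without the 6-month library 3, and 8 were called higher and 6 lower without that library and the 3-month libraries 4 and 5. None of 37 actin cytoskeleton and focal adhesion genes was called with edgeR. Of these 37, 8 had an unadjusted p under 0.05, 4 in each direction, against 31% of all genes, and DESeq2 called 1 in each direction. Without those 3 libraries, 14 of them were called higher and 1 lower.

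Of 20 secreted factors that act on glomerular vessels, 3 were called lower and 1 higher. Over the list, 10 log2 changes were positive and 10 negative, with a median of 0.06. Angptl2, an angiopoietin-like protein, had 145, 139 and 76.2 CPM at 6 months, against 518, 425, 659, 224 and 236 CPM at 3 months (log2 change -1.78 ± 0.33, adjusted p = 0.0115). Plat, tissue plasminogen activator, had 108, 112 and 37.4 CPM at 6 months, against 302, 357, 373, 157 and 148 CPM at 3 months (log2 change -1.64 ± 0.38, adjusted p = 0.0192). Vegfb, a growth factor of the VEGF family, fell by less, with 44.8, 46.8 and 38.9 CPM at 6 months, against 62.7, 68.8, 66.8, 56.5 and 65.5 CPM at 3 months (log2 change -0.56 ± 0.12, adjusted p = 0.0162). In these 3 genes the ages did not overlap. Sema3c, a secreted semaphorin, was called higher (log2 change 1.20 ± 0.27, adjusted p = 0.0187), with the 6-month library 2 inside the 3-month range. No member was called without the 6-month library 3, and 6 were higher and 5 lower without that library and the 3-month libraries 4 and 5.

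Of 29 complement and inflammation genes, 3 were called higher and 2 lower. C3, the central complement protein, had 1384, 654 and 1684 CPM at 6 months, against 209, 152, 109, 683 and 464 CPM at 3 months (log2 change 1.94 ± 0.44, adjusted p = 0.0192). The 6-month library 2 was below the 3-month library 4. The membrane inhibitors of complement Cd59a (log2 change -1.41 ± 0.37, adjusted p = 0.0269) and Cd55 (log2 change -1.58 ± 0.49, adjusted p = 0.0481) were called lower. Icam1 (log2 change 1.23 ± 0.39, adjusted p = 0.0481) and Vcam1 (log2 change 1.76 ± 0.56, adjusted p = 0.0484), adhesion molecules of inflamed endothelium and epithelium, were called higher. None of the 5 was called without the 6-month library 3, while without that library and the 3-month libraries 4 and 5, 18 members were higher and 3 lower. None of 15 chemokines was called by edgeR, and 1 was called higher by DESeq2. At an unadjusted p under 0.05, 4 were higher and none lower, where 13.8% of all genes were higher. Without those 3 libraries, 8 chemokines were called higher. Macrophage markers summed to 451, 256 and 595 CPM at 6 months, against 76.4, 58.2, 64.97, 478 and 238 CPM at 3 months, so that the 6-month libraries and the 3-month libraries 4 and 5 were the high ones. The part of these markers in the complement values was not tested.

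Fatty acid genes included the rise with the lowest adjusted p. Of 23 members tested, 6 were called higher and none lower, with a median log2 change of 0.15. Plin2 (chr4:86648386-86670060), which coats lipid droplets, had 78.9, 82.5 and 168 CPM at 6 months, against 46.6, 42.9, 45.8, 46.9 and 43.6 CPM at 3 months (log2 change 1.28 ± 0.18, adjusted p = 0.0084). The 5 libraries at 3 months, libraries 4 and 5 included, lay within a narrow range, and every 6-month library was above it. Without the 6-month library 3, which had the highest level, the log2 change of Plin2 was 0.84 (adjusted p = 0.0168). Controls had 44.7 ± 4.21 CPM at 6 months and 38.5 ± 3.90 CPM at 3 months (SD, n = 4 and 5).

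The other risers of the list were enzymes of fatty acid handling. Ehhadh (chr16:21761287-21787844), the bifunctional enzyme of peroxisomal oxidation, had 197, 152 and 170.2 CPM at 6 months, against 77.2, 68.3, 83.5, 102 and 109.6 CPM at 3 months (log2 change 0.97 ± 0.18, adjusted p = 0.0115). It did not overlap between the ages and had a log2 change of 0.98 without the 6-month library 3 (adjusted p = 0.0455). In the controls, Ehhadh stood at 203 ± 32.5 CPM at 6 months and 201 ± 42.9 CPM at 3 months (SD, n = 4 and 5), above the diabetic libraries of 3 months. Acot1 (log2 change 0.77 ± 0.20, adjusted p = 0.0231) and Acot2 (log2 change 0.58 ± 0.15, adjusted p = 0.024), which split acyl-CoA and can share reads as close paralogs, also rose without overlap. Acsl1, which activates fatty acids, was called at a log2 change of 0.54. The count was 2 without the 6-month library 3, 7 without that library and the 3-month libraries 4 and 5, and 5 with DESeq2 without the 6-month library 3. In controls at 3 months, Plin2, Ehhadh, Acot1 and Acot2 were all lower in TRAP than in whole kidney, with ratios of 0.484, 0.505, 0.531 and 0.673. These ratios do not describe the diabetic libraries.

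Glycolysis genes followed, with 5 of 20 called higher and none lower, and all 5 calls ended without the 6-month library 3. Slc2a1, the basal glucose transporter, had 42.5, 24.5 and 106 CPM at 6 months, against 19.1, 20.6, 21.6, 26.8 and 25.8 CPM at 3 months (log2 change 1.33 ± 0.29, adjusted p = 0.0186). The 6-month library 3 was the high one, and the log2 change without it was 0.56 (adjusted p = 0.173). Hk2, an inducible hexokinase, had 23.2, 7.20 and 47.2 CPM at 6 months, against 0.447, 0.954, 0.672, 10.6 and 6.13 CPM at 3 months (log2 change 2.76 ± 0.79, adjusted p = 0.0336). Its 3-month libraries 1 to 3 were near 0, while library 4 lay above the 6-month library 2 and library 5 just below it. Ldha, which makes lactate, had 282, 261 and 432 CPM at 6 months, against 192, 189, 247, 213 and 250.1 CPM at 3 months (log2 change 0.57 ± 0.16, adjusted p = 0.0319), without overlap. Slc16a3, a lactate exporter, had 8.68, 3.87 and 20.4 CPM at 6 months, against 1.09, 1.70, 0.747, 4.79 and 1.78 CPM at 3 months (log2 change 2.42 ± 0.58, adjusted p = 0.0202). Pdk4, which holds pyruvate back from the mitochondria, was called at a log2 change of 1.78 ± 0.55 (adjusted p = 0.0463).

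Several glycolysis genes are textbook targets of hypoxia-inducible factors, whose core binding motif is ACGTG, so the upstream sequences of the members called are shown with that motif on either strand in capitals. In RefSeq promoters (GRCm38.p6, 250 bases before to 50 after the start), 12 of 20 listed glycolysis genes (60%) held ACGTG, against 21.8% of all genes with a promoter in the table, and 4 of the 5 members called held it. Pdk4 had no match in this window. The 250 bases before the start are printed 5′ to 3′ for the other 4, with positions counted back from the start. They are Slc2a1 (chr4:119108495-119108744, plus strand) with a match at -36, Hk2 (chr6:82774455-82774704, minus strand) with matches at -226 and -52, Ldha (chr7:46845554-46845803, plus strand) and Slc16a3 (chr11:120948817-120949066, plus strand) with matches at -27 and -14. Ldha has 5 matches, of which 4 are overlapping pairs, since the palindrome CACGTG holds the motif on both strands.
Slc2a1: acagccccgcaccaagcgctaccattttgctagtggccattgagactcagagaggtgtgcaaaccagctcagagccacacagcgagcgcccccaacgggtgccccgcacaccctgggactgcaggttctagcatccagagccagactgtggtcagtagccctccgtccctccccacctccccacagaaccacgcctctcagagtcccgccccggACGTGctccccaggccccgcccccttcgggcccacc
Hk2: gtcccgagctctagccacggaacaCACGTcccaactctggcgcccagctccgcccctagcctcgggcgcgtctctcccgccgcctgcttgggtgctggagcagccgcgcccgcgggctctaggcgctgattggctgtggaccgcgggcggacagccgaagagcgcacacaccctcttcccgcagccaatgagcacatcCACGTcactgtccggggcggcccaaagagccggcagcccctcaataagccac
Ldha: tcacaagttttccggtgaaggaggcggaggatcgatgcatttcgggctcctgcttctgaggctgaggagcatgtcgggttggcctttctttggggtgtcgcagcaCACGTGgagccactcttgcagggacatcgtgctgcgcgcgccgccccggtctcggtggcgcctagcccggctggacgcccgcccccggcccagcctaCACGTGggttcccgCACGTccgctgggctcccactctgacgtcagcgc
Slc16a3: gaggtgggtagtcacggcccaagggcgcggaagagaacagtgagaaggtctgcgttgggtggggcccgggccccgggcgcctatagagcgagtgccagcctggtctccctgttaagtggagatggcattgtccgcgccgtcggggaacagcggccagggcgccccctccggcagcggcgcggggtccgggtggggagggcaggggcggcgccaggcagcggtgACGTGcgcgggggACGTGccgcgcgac
A match is a run of letters and does not show that a factor binds there.

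Genes of mitochondrial respiration were lower. All 40 nuclear-encoded oxidative phosphorylation genes tested had a negative log2 change, with a median of -0.62, and 15 were called lower. Cox7b, a subunit of cytochrome c oxidase, had 21.02, 39.2 and 12.8 CPM at 6 months, against 60.8, 80.3, 109, 43.02 and 48.7 CPM at 3 months (log2 change -1.48 ± 0.31, adjusted p = 0.0157), without overlap. Atp5c1, a subunit of ATP synthase, had 82.3, 98.5 and 72.5 CPM at 6 months, against 188, 161, 278, 106 and 111 CPM at 3 months (log2 change -0.999 ± 0.24, adjusted p = 0.0193), also without overlap. Atp5d, of ATP synthase too, and Cox8a had log2 changes of -1.14 ± 0.25 (adjusted p = 0.0168) and -0.96 ± 0.24 (adjusted p = 0.022). The exons of Atp5d overlap those of Cbarp on the opposite strand, and the sources used here do not say whether strand was used in counting. The count of members called lower was 0 without the 6-month library 3 (median log2 change -0.38), 23 without that library and the 3-month libraries 4 and 5, and 8 with DESeq2 without the 6-month library 3. Of 12 genes of the mitochondrial genome, mt-Co3 was called lower (log2 change -1.41 ± 0.37, adjusted p = 0.0249) and none higher. Proximal tubule cells, rich in mitochondria, gave a marker sum of 10790, 7074 and 4565 CPM at 6 months, against 9453, 8687, 12820, 5524 and 12220 CPM at 3 months. Its part in these values was not tested.

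Ribosomal protein genes were called lower for 7 of 32 and higher for 1, Rplp0 (log2 change 0.92 ± 0.26, adjusted p = 0.0315). Rpl11, of the large subunit, had 131, 189.6 and 155 CPM at 6 months, against 203, 248, 247, 215 and 213 CPM at 3 months (log2 change -0.51 ± 0.14, adjusted p = 0.0269). Rpl10a, the ribosomal protein that TRAP methods commonly tag, had 99.05, 161 and 99.1 CPM at 6 months, against 192, 234, 238, 192 and 151 CPM at 3 months (log2 change -0.75 ± 0.21, adjusted p = 0.0312), with the 6-month library 2 above the 3-month library 5. Pseudogenes of ribosomal proteins can share reads with their parents, so these values are uncertain. No ribosomal protein gene was called without the 6-month library 3, and 12 were called lower without that library and the 3-month libraries 4 and 5. Of 26 unfolded protein response genes, 3 chaperones of the endoplasmic reticulum were called lower and none higher. Hsp90b1, the chaperone GRP94, had 90.7, 83.5 and 81.8 CPM at 6 months, against 188, 156, 195, 121 and 96.97 CPM at 3 months (log2 change -0.83 ± 0.20, adjusted p = 0.0197), and the disulfide isomerases Pdia4 (log2 change -0.85 ± 0.23, adjusted p = 0.0258) and Pdia3 (log2 change -0.54 ± 0.16, adjusted p = 0.0392) followed. None was called without the 6-month library 3, and 5 were called lower without that library and the 3-month libraries 4 and 5. None of the 20 genes of the integrated stress response was called by edgeR, and 1 was called higher by DESeq2. At an unadjusted p under 0.05, 2 were higher and none lower, where 13.8% of all genes were higher. Without those 3 libraries, 6 of the 20 were called higher.

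Of 18 circadian clock genes, 4 were called lower and none higher, with a median log2 change of -0.48. Per1, a repressor of the clock and an early response gene, had 136, 93.6 and 181 CPM at 6 months, against 323, 427, 359, 216 and 324 CPM at 3 months (log2 change -1.27 ± 0.35, adjusted p = 0.0308), without overlap. The nuclear receptor Nr1d2 had 146, 146 and 87.4 CPM at 6 months, against 283, 218, 271, 199 and 201 CPM at 3 months (log2 change -0.89 ± 0.21, adjusted p = 0.0192), again without overlap. Nr1d1 (log2 change -1.20 ± 0.30, adjusted p = 0.0228), whose exons overlap Thra on the opposite strand, and Hlf (log2 change -0.90 ± 0.26, adjusted p = 0.0359), a clock output factor, were the others. The labels give no hour of collection, and its part was not tested. None was called without the 6-month library 3, and 3 were called with DESeq2 without it. The clock proteins bind the E-box CACGTG, which 8.09% of genes with a RefSeq promoter and 5 of 15 listed clock genes held. Among the 4 members called, Per1 held it, at -166 in the window chr11:69098699-69098948, plus strand, printed with the E-box in capitals.
Per1: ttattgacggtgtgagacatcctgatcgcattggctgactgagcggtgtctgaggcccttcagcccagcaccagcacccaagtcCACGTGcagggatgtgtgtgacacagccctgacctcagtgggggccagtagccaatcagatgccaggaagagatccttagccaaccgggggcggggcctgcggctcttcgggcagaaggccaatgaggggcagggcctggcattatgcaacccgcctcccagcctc

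Immediate-early nuclear receptors had the largest falls among called genes with a mean of at least 10 CPM and no overlap. Nr4a1, a stress- and activity-induced receptor, had 54.8, 65.1 and 27.7 CPM at 6 months, against 582, 672, 379, 200 and 236 CPM at 3 months (log2 change -3.06 ± 0.64, adjusted p = 0.0172). Its relative Nr4a3 had 8.47, 12.3 and 6.33 CPM at 6 months, against 58.3, 88.8, 42.9, 50.5 and 202 CPM at 3 months (log2 change -3.27 ± 0.85, adjusted p = 0.0278). For both, the 6-month libraries were all below the 3-month libraries, and the log2 changes without the 6-month library 3 were -2.79 (adjusted p = 0.109) and -3.09 (adjusted p = 0.161). In the controls, Nr4a1 had 169.9 ± 69.4 CPM at 6 months and 293 ± 239 CPM at 3 months (SD, n = 4 and 5), a spread that reached the diabetic values of 3 months. Of 24 immediate-early and heat shock genes, Nr4a1 was the member called lower, and Myc and Fosl1 were called higher. Myc, the growth regulator, had 37.5, 39.5 and 65.2 CPM at 6 months, against 7.47, 9.75, 8.79, 23.5 and 21.6 CPM at 3 months (log2 change 1.73 ± 0.33, adjusted p = 0.0122), without overlap. Fosl1, of the AP-1 family, had a log2 change of 1.46 ± 0.42 (adjusted p = 0.0343), but its exons overlap the more abundant Ccdc85b on the opposite strand.

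Besides Nr4a3 and Nr4a1, the largest falls by that rule were in Kcna6, Ptchd4, Mgat5b, Sgip1, Vtcn1, R3hdml, Gm16010, Lingo2, Stk26 and Txlnb, with log2 changes of -2.63 to -1.94. Kcna6, a voltage-gated potassium channel, had 4.13, 3.44 and 0 CPM at 6 months, against 21.97, 19.2, 24.1, 8.32 and 11.1 CPM at 3 months (log2 change -2.63 ± 0.57, adjusted p = 0.0173). Vtcn1, a B7-family regulator of T cells, had 5.34, 15.4 and 3.95 CPM at 6 months, against 41.2, 48.9, 52.2, 24.04 and 28.3 CPM at 3 months (log2 change -2.21 ± 0.38, adjusted p = 0.0092). Mgat5b, a glycosyltransferase, had 3.79, 6.93 and 0 CPM at 6 months, against 20.1, 19.6, 21.7, 21.4 and 15.1 CPM at 3 months (log2 change -2.32 ± 0.50, adjusted p = 0.0186). These 3 remained called without the 6-month library 3, at adjusted p values of 0.0389, 0.0432 and 0.0389. Controls had 65.5 ± 13.1 CPM of Mgat5b at 6 months and 112 ± 40.2 CPM at 3 months (SD, n = 4 and 5), above every diabetic library. Of the 10 genes, Kcna6, Ptchd4, Mgat5b, Sgip1, Vtcn1, R3hdml, Lingo2, Stk26 and Txlnb were enriched in control TRAP libraries over kidney, with ratios from 5.83 to 99.2. Gm16010 overlaps Spsb4 on the opposite strand.

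The largest rises by the same rule were in Gm26917, Plin4, Krt19, Yam1, Gdf15, Gpc6, Pik3cd, Cd93, Ypel2, Clcf1, Itgb4 and Elf3, with log2 changes of 2.90 to 1.87. Ypel2 (chr11:86936425-86993707), a member of the yippee-like family, had 82.6, 77.7 and 178 CPM at 6 months, against 24.9, 20.5, 14.2, 46.1 and 34.3 CPM at 3 months (log2 change 2.01 ± 0.30, adjusted p = 0.00868). It was the one of the 12 still called without the 6-month library 3 (log2 change 1.51, adjusted p = 0.0411), and controls had 18.8 ± 2.82 CPM at 6 months and 18.6 ± 3.11 CPM at 3 months (SD, n = 4 and 5). Gdf15, a secreted stress signal, had 19.3, 10.4 and 42.3 CPM at 6 months, against 4.98, 3.71, 3.31, 8.89 and 6.96 CPM at 3 months (log2 change 2.10 ± 0.51, adjusted p = 0.0215). Cd93, a receptor of endothelial and myeloid cells, had 55.1, 31.8 and 127 CPM at 6 months, against 10.2, 10.1, 12, 27.2 and 26.02 CPM at 3 months (log2 change 2.05 ± 0.37, adjusted p = 0.0115). Plin4, another lipid droplet protein, had 16.4, 12.6 and 38.6 CPM at 6 months, against 1.47, 2.33, 3.06, 4.63 and 6.81 CPM at 3 months (log2 change 2.61 ± 0.53, adjusted p = 0.015), but its exons overlap those of Hdgfl2 on the opposite strand, which averaged 53.4 CPM at 3 months. Yam1 overlaps an 18S ribosomal RNA gene on the opposite strand of chromosome 17, so its values are uncertain. Gm26917, the largest of these rises, lies beside Yam1 at chr17:39843013-39846341 and is uncertain too. It had 3414, 1247 and 7435 CPM at 6 months, against 682, 323 and 1238 CPM of Yam1 in the same libraries. The part of ribosomal RNA reads in either was not tested. The 18S gene Rn18s-rs5 took 4.35 to 7.27% of counts in the 6-month diabetic libraries and 1.43 to 10.2% in the 3-month diabetic libraries.

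Of 15 tubular injury markers, 8 were called higher, Plin2, Krt18, Krt8, Krt19, Clu, Sox4, Krt20 and Vcam1, and Cryab was called lower. The list's median log2 change was 1.19. Krt8, an epithelial keratin, had 119, 56 and 127 CPM at 6 months, against 39.2, 29.8, 33.5, 50.9 and 66.9 CPM at 3 months (log2 change 1.19 ± 0.27, adjusted p = 0.0187), and its partner Krt18 had 24.7, 15.9 and 54.6 CPM at 6 months, against 6.64, 6.84, 7.17, 17.7 and 12.8 CPM at 3 months (log2 change 1.62 ± 0.37, adjusted p = 0.0187). In both, the 6-month library 2 lay within the 3-month range. Krt19, a keratin of simple epithelia, had 13.8, 11.3 and 38.9 CPM at 6 months, against 2.30, 1.64, 1.84, 9.76 and 6.65 CPM at 3 months (log2 change 2.25 ± 0.56, adjusted p = 0.0222), without overlap. Without the 6-month library 3 only Plin2 of this list was called, and without that library and the 3-month libraries 4 and 5, 12 were higher and 1 lower. In control podocytes at 3 months their levels were below those of whole kidney, with TRAP ratios of 0.325 for Krt8, 0.432 for Krt18 and 0.69 for Krt19. These ratios do not describe the diabetic libraries.

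Of 25 TGF-beta signalling and fibrosis genes, 6 were called higher and none lower, with a median of 0.62. They were Tgfbi, a matrix protein induced by TGF-beta, both receptors Tgfbr1 and Tgfbr2, the signal carrier Smad3, the inhibitor Smad7 and the membrane protease Mmp14. Smad3 had 151, 144 and 133 CPM at 6 months, against 102, 100, 98.97, 118 and 123 CPM at 3 months (log2 change 0.40 ± 0.12, adjusted p = 0.0356), without overlap. Tgfbi had 68.6, 18.97 and 429.9 CPM at 6 months, against 5.75, 4.82, 6.70, 39.96 and 19.4 CPM at 3 months (log2 change 3.48 ± 0.80, adjusted p = 0.0206), so that most of its change lay in the 6-month library 3. No member was called without that library, and 19 were called higher without it and the 3-month libraries 4 and 5. Fibroblast markers summed to 756, 329.8 and 531 CPM at 6 months, against 94.6, 88.3, 83.1, 704 and 354 CPM at 3 months, the 3-month libraries 4 and 5 again being within the 6-month range. The part of these markers was not tested.

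Smaller numbers of members were called in the remaining pathway lists. Over all genes tested, 5.24% were called higher and 6.65% lower, and most of these lists stood near or below those shares. Of 22 p53, apoptosis and senescence genes, Gdf15 and Pmaip1, the death-promoting protein Noxa, were called higher and Ccng1, a p53 target, lower. Pmaip1 had 35.8, 37.8 and 37.4 CPM at 6 months, against 12.97, 11.2, 8.81, 29.9 and 18.3 CPM at 3 months (log2 change 1.19 ± 0.30, adjusted p = 0.0221), without overlap. Among 23 cholesterol genes, the exporter Abca1 (log2 change 1.60 ± 0.39, adjusted p = 0.0222) and Apoe (log2 change 1.165 ± 0.31, adjusted p = 0.0266) were higher and the synthesis enzyme Sc5d lower (log2 change -0.99 ± 0.30, adjusted p = 0.0388). Of 26 oxidative stress genes, Nqo1 (log2 change 0.60 ± 0.17, adjusted p = 0.0304) and Keap1 (log2 change 0.46 ± 0.13, adjusted p = 0.0323) were higher, and Nox4, a source of hydrogen peroxide (log2 change -1.07 ± 0.32, adjusted p = 0.0378), and Gpx4, which detoxifies lipid peroxides (log2 change -0.61 ± 0.19, adjusted p = 0.0423), were lower. Of 27 lysosome and autophagy genes, Ctsd and Gpnmb were higher and Lamp2 lower. Of 23 insulin signalling genes, the insulin receptor Insr was higher (log2 change 0.72 ± 0.19, adjusted p = 0.0237), with the ages overlapping. Akt2 was lower (log2 change -0.53 ± 0.14, adjusted p = 0.0269), without overlap. Of 20 antigen presentation genes, H2-DMa was higher and H2-Q6 and H2-Q7, near-identical class I genes that can share reads, were lower. Of 27 interferon-induced genes Rsad2 was higher, and of 23 cell cycle genes Mki67 was higher, at 34.7, 12.9 and 215 CPM at 6 months, against 13.6, 10.2, 6.42, 31.6 and 32.04 CPM at 3 months. The log2 change of Mki67 was 2.21 with the 6-month library 3 and 0.34 without it. No member of the lists in this paragraph was called without the 6-month library 3. Without that library and the 3-month libraries 4 and 5, antigen presentation genes had the most calls of these lists, with 9 higher and 2 lower. In that fit, 1659 of 17512 genes tested were called higher and 1739 lower.

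**Figure D3:**
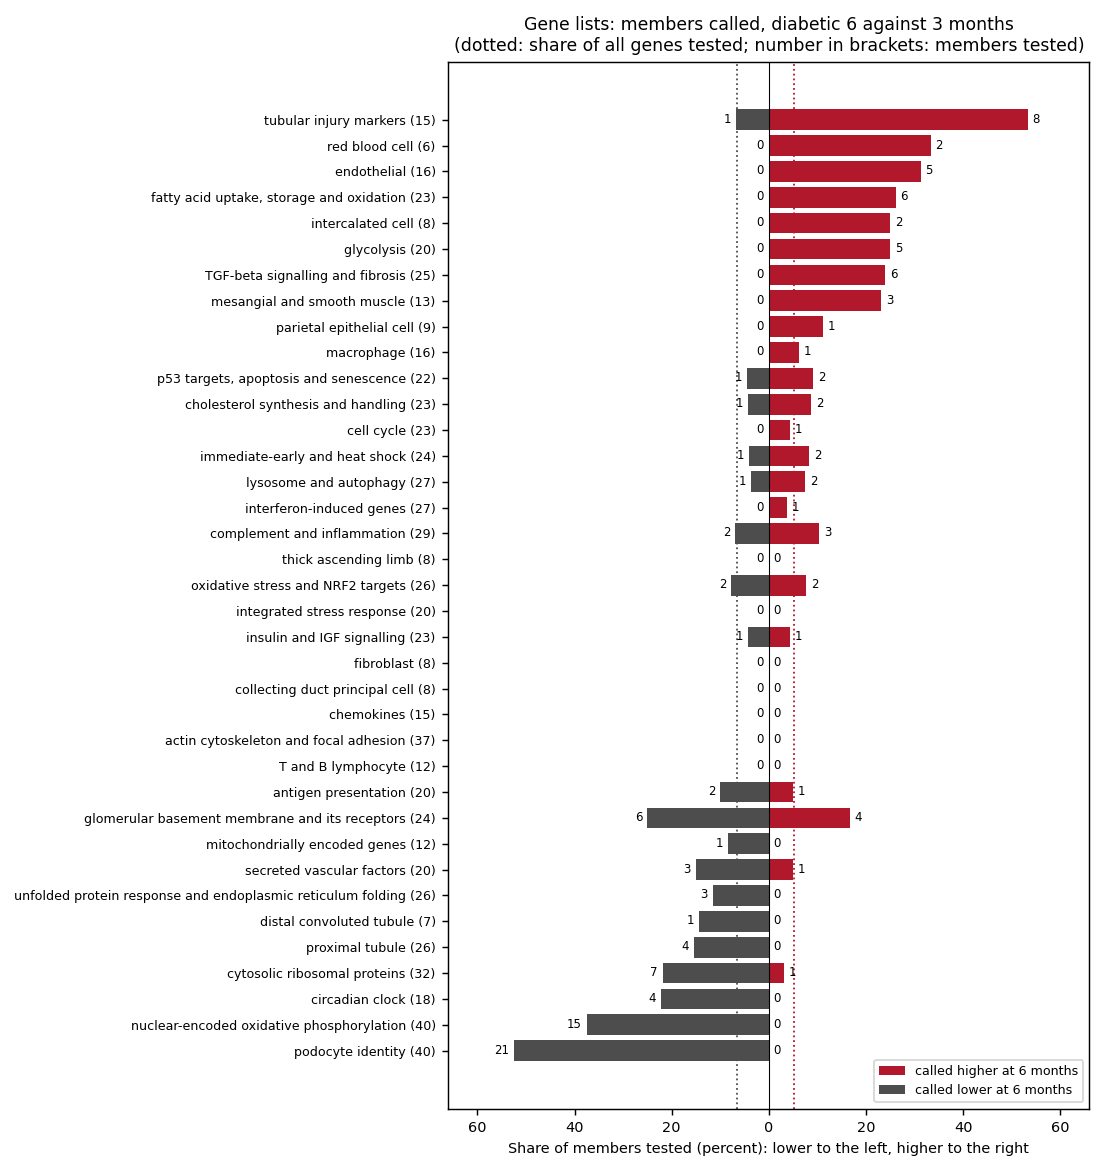
Share in percent of each list's tested members that were called higher (red, to the right) or lower (grey, to the left) in diabetic podocytes at 6 against 3 months, with the number called beside each bar, for lists with at least 5 members tested. Dotted lines mark the shares over all genes tested, 5.24% higher and 6.65% lower. Podocyte identity (21 of 40) and oxidative phosphorylation (15 of 40) reach farthest to the left, and tubular injury markers (8 of 15) farthest to the right.

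Summed macrophage, fibroblast and mesangial markers were higher in the 6-month libraries and in the 3-month libraries 4 and 5 than in the 3-month libraries 1 to 3. T and B lymphocyte markers summed to 279.8, 122 and 378 CPM at 6 months, against 29.7, 12.7, 16.8, 446 and 29.9 CPM at 3 months, with none of 12 called by edgeR or DESeq2 and 2 at an unadjusted p under 0.05, both higher, where 13.8% of all genes were higher. Of the 3-month libraries, library 4 alone was high in these. None of 8 fibroblast and 3 neutrophil markers was called, and 1 of 16 macrophage markers was, Laptm5 (log2 change 2.12 ± 0.64, adjusted p = 0.0426). Without the 6-month library 3 and the 3-month libraries 4 and 5, 14 macrophage, 7 lymphocyte and 4 fibroblast markers were called higher, and without the 3-month libraries 4 and 5 alone, 15, 9 and 3. Over all genes tested, 1659 of 17512 and 2388 of 16774 were called higher in these fits. Mesangial and smooth muscle markers summed to 816, 904 and 533 CPM at 6 months, against 369, 312, 289, 922 and 665 CPM at 3 months, with Notch3, Cspg4 and Mcam called higher of 13. Endothelial markers summed to 676, 412 and 782 CPM at 6 months, against 352, 307, 406, 427 and 598 CPM at 3 months, with Tek, Tie1, Ptprb, Nos3 and Flt1 called higher of 16. Library 5 had the highest endothelial sum at 3 months. Without the 6-month library 3 none of the endothelial, mesangial or macrophage markers was called, and without all 3 libraries 6 endothelial and 8 mesangial markers were higher. Nos3, the gene of eNOS, had 10.8, 8.87 and 9.88 CPM at 6 months, against 4.22, 2.76, 2.69, 7.09 and 5.66 CPM at 3 months (log2 change 1.13 ± 0.35, adjusted p = 0.0397). A gene-level count can include exons outside a deletion, so it does not check the eNOS genotype, nor does the count of Lepr, the leptin receptor (log2 change 0.45 ± 0.40, adjusted p = 0.463), check the db mutation.

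Tubular and blood markers set single libraries apart. Of 26 proximal tubule markers, Kap, Slc7a13, Gatm and Ttc36 were called lower and none higher. Of 7 distal convoluted tubule markers, the calcium-binding protein Pvalb was lower (log2 change -2.40 ± 0.44, adjusted p = 0.0114), and none of 8 thick ascending limb or 8 collecting duct principal cell markers was called. Red blood cell markers summed to 38.8, 26.2 and 324 CPM at 6 months, against 18.3, 22.7, 29.6, 14.3 and 32.99 CPM at 3 months, and the anion exchanger Slc4a1, of red cells and intercalated cells, had 29.6, 16.02 and 288 CPM at 6 months, against 12.7, 13.1, 12.99, 7.96 and 18.4 CPM at 3 months (log2 change 3.08 ± 0.61, adjusted p = 0.0151). The intercalated cell factor Foxi1 had 13.5, 11.7 and 77.1 CPM at 6 months, against 12.2, 8.59, 11.97, 16.1 and 14.4 CPM at 3 months (log2 change 1.41 ± 0.43, adjusted p = 0.0401). The high value was in the 6-month library 3 in each case, and the log2 change of Foxi1 without that library was -0.01 (adjusted p = 0.988). Of 9 parietal epithelial markers Scin was called higher (log2 change 1.18 ± 0.28, adjusted p = 0.0197). The part of any of these cell types in the results was not tested.

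**Figure D4:**
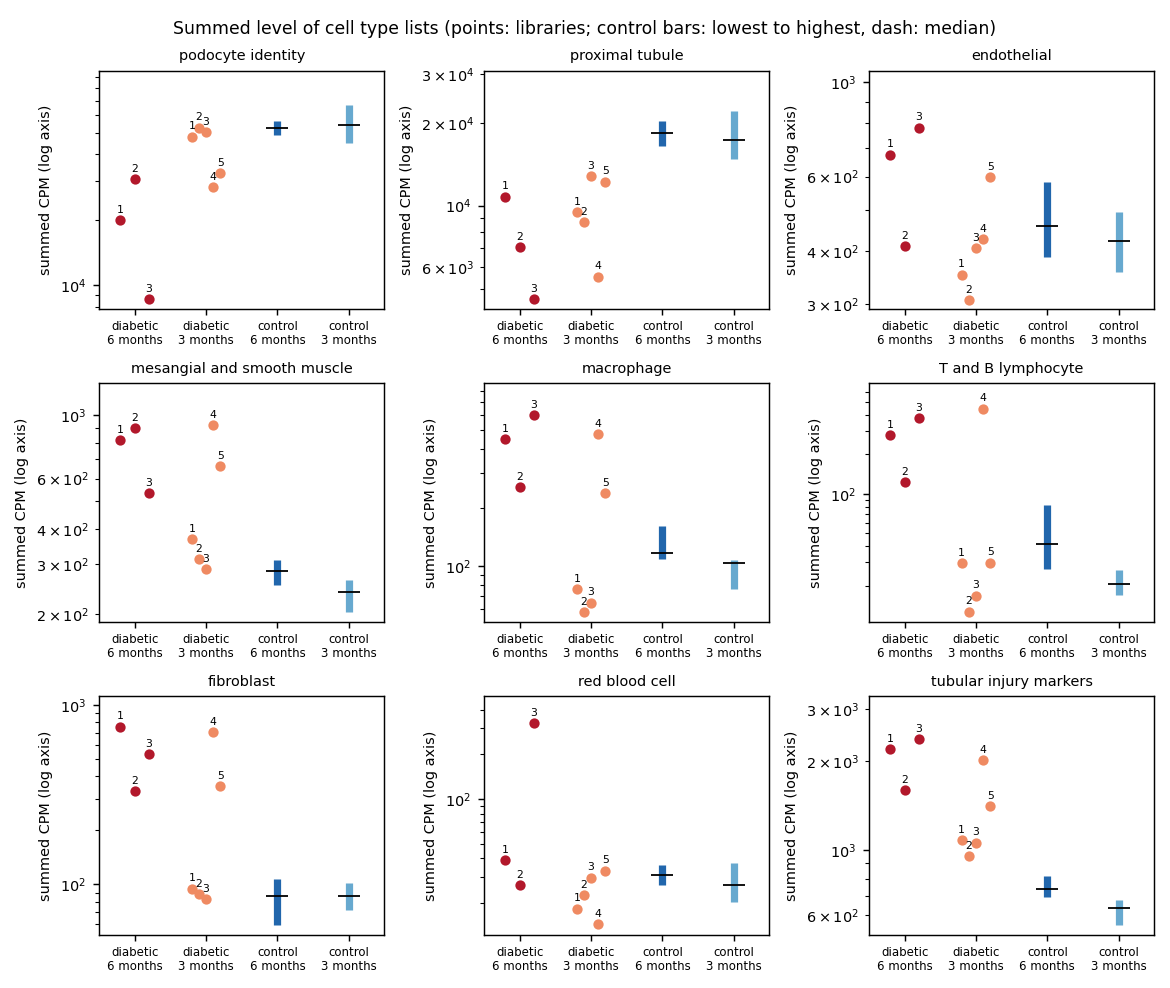
Summed CPM (log axis) of 9 cell type or injury lists in each diabetic library at 6 and 3 months (points with replicate numbers) and, for controls at 6 and 3 months, the lowest to highest value (bar) with the median (dash). The 3-month diabetic libraries 4 and 5 lie above libraries 1 to 3 of their group for macrophage and fibroblast markers, and the 6-month library 3 is alone in red blood cell markers at 324 CPM.

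Control podocytes of the same ages gave no call. With the same test, 0 of 17180 genes were called between controls at 6 and 3 months, 540 (3.14%) had an unadjusted p under 0.05, 303 higher (1.76%) and 237 lower (1.38%), and DESeq2 called 18. Control libraries of both ages did not overlap for 1.32% of genes in the higher and 1.17% in the lower direction. The median size of the log2 change was 0.17 in controls, against 0.47 in diabetic libraries. Whether a gene changed differently in diabetic than in control libraries was tested as a difference of the changes. In that test 0 genes passed the adjusted threshold, with a lowest adjusted p of 0.0876, 3252 (18.9%) had an unadjusted p under 0.05, 1353 with the higher change in diabetic libraries (7.88%) and 1899 with the lower (11.1%), and DESeq2 called 576. Among the 2043 genes called in diabetic podocytes, 1657 had an unadjusted p under 0.05 for the difference, in the same direction. These genes were chosen by the diabetic change, which is part of the difference, so much of this overlap is built in.

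The differences were also read for single genes, first for some with a low unadjusted p. The log2 change of Magi2 was -1.91 ± 0.31 in diabetic and -0.24 ± 0.26 in control libraries, a difference of -1.67 (unadjusted p = 0.000444, adjusted p = 0.108). For Plin2 the log2 changes were 1.28 ± 0.18 in diabetic and 0.22 ± 0.17 in control libraries, a difference of 1.06 (unadjusted p = 0.000497, adjusted p = 0.108). For Ypel2 they were 2.01 ± 0.30 in diabetic and 0.01 ± 0.29 in control libraries, a difference of 1.99 (unadjusted p = 0.000156, adjusted p = 0.108). The log2 change of Nr1d2 was -0.89 ± 0.21 in diabetic and 0.43 ± 0.18 in control libraries, a difference of -1.31 (unadjusted p = 0.000137, adjusted p = 0.108). Other genes called higher in diabetic libraries had positive log2 changes in controls too, without a call there. The diabetic and control changes were 1.94 and 1.12 for C3 (unadjusted p of the difference = 0.198) and 2.42 and 1.29 for Slc16a3 (0.186). They were 3.02 and 2.13 for Krt20 (0.554) and 0.75 and 0.60 for Clu (0.593). Of the 40 podocyte identity genes, 26 had an unadjusted p under 0.05 for the difference, all with the lower change in diabetic libraries, against 11.1% of all genes in that direction.

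**Figure D5:**
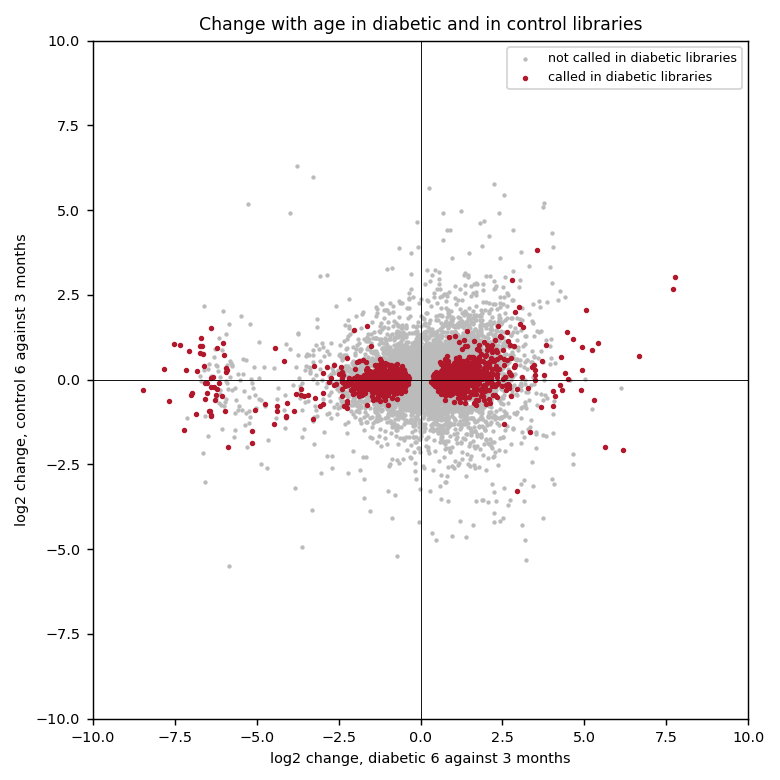
Log2 change between 6 and 3 months in diabetic libraries (x axis) and in control libraries (y axis) for each of the 17180 genes tested, with the 2043 genes called in diabetic libraries in red and the others in grey. The red points spread along the x axis and stay near 0 on the y axis, where the median size of change is 0.17.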

How the data were processed

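The authors deposited raw read counts per gene and FPKM for 32108 genes, and the counts were the base of all tests. Per the submitters' processing notes, reads passed through cutadapt 1.16, STAR, FastQC and featureCounts 1.15.2 with build mm9, but the table's coordinates are those of GRCm38 (99.981% of 31871 genes matched to GENCODE M21 overlapped). Libraries were made with a NuGEN Ovation mouse kit, per the labels' protocols. The 17 libraries of the type 2 model were fitted together with edgeR 4.0.16 in R 4.3.3, using TMM factors, filterByExpr on the groups, robust quasi-likelihood F tests and Benjamini-Hochberg adjustment at 0.05. CPM are TMM-normalised, and SE is the log2 change over the square root of F. Enrichment is CPM plus 0.5 in control TRAP libraries at 3 months over the single kidney library. Alternatives used DESeq2 1.42.0, limma 3.58.1 (voom, or log2 of the deposited FPKM plus 1), other scalings, filters and library sets. The steps were tested on simulated data.

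The comparison, its 24 pathway and 14 marker lists and the rule for named genes were chosen with earlier results of these data known. Named are the 12 largest rises and 12 largest falls among called genes with a mean of at least 10 CPM and no overlap, up to 4 called members per list by lowest p, and Rpl10a, Lepr, Nos3, Synpo, Podxl, Wt1 and Nphs1. Further members complete a list's count, and some items are not reported here. A single count equals 0.0265 CPM in the deepest and 0.149 CPM in the shallowest library, and reads carry no molecular identifiers. No 2 libraries of a group agreed within sampling noise. Plots were drawn with matplotlib 3.10.9.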

Additional observations from a re-analysis of the deposited data

Results flagged for a closer look

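Among 114 genes and 38 list sums checked in the 5 diabetic libraries at 3 months, 9 had 1 library far from the other 4. Chance flags about 1 in 20 such groups. Library 4 was the high one for the summed CPM of T and B lymphocyte markers (445.9), interferon-induced genes (556.2) and neutrophil markers (7.525). In single genes it was high for Rsad2 (17.78 CPM), H2-DMa (19.38 CPM), Gpnmb (4.329 CPM) and Slc16a3 (4.795 CPM). Library 5 was the high one for Insr (161.8 CPM) and for Nr4a3 (202.3 CPM). The group of 3 diabetic libraries at 6 months is too small for this check.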

How the results depend on the processing

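The direction of the 2043 calls held in all but 2 genes without the 6-month diabetic library 3, in a fit that shares all the other libraries. The number of calls moved widely. Leaving out 1 library at a time gave 50 to 4455 calls for diabetic 6 against 3 months, 0 to 2 for the controls and 0 to 1911 for the difference between the changes. The lowest of these was without the 6-month library 3, and the highest without the 6-month library 2, which lay nearest to the 3-month group. In the diabetic comparison DESeq2 called 3453, limma on log2(FPKM + 1) 2968, limma voom with library quality weights 3949, and DESeq2 without the 6-month library 3 814. Without the 3-month libraries 4 and 5 the count was 4709, without these and the 6-month library 3 it was 3398, and in the diabetic libraries alone 0. The 8487 genes at or above their kidney level in TRAP gave 1213, and no filter on low counts gave 1366. RLE size factors (2233, 1128 higher and 1105 lower), library totals alone (1972, 1111 higher and 861 lower, or 56.3% higher), a CPM minimum (2224), no robust estimation (2069), counts thinned to the lowest library total (2195) and leaving out 18S and mitochondrial genes (2058) stayed within 1.5 times of 2043. For the controls, DESeq2 called 18, no filter 2, the control libraries alone 9, voom weights 16, DESeq2 without the 6-month library 3 35, and the fit without all 3 diabetic libraries 6. For the difference, DESeq2 called 576, no filter 3, voom weights 1629, DESeq2 without the 6-month library 3 84, the fit without the 3-month libraries 4 and 5 2090, and without all 3 diabetic libraries 1640. The thinned counts, voom weights and the fits that combine left-out libraries or tools were chosen after seeing the data. The cause was not tested.

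Libraries with the same number showed no steady common deviation between the ages (correlations of -0.01, 0.22 and -0.22 for the 3 diabetic pairs). So few pairs cannot exclude something shared behind the numbers, which the labels do not explain. With a replicate block, 3260 genes were called in the diabetic comparison, 0 in the controls and 71 for the difference. Of 114 genes chosen for naming, 9 kept their call or its absence without the 6-month library 3, 104 lost it and Foxi1 turned to a log2 change of -0.0103 (1.81 without the 6-month library 2 and -0.0103 without library 3 as the range over left-out libraries), while RLE size factors changed none. At the depth of the 6-month library 3, 3 counts equal 0.448 CPM, so lower levels were not detectable there.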

Other observations

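A pair of genes with a low adjusted p lie outside the lists and were named after their values were seen. Itga6, a laminin-binding integrin chain, had 187, 105 and 210.2 CPM in 6-month diabetic podocytes, against 60.6, 60.2, 50.7, 99.8 and 70.95 CPM in 3-month diabetic podocytes (log2 change 1.29 ± 0.20, adjusted p = 0.00868; 1.09 without the 6-month library 3, adjusted p = 0.0411). Ephb1, an ephrin receptor, had 11.5, 27.3 and 12.8 CPM at 6 months, against 70.1, 58.6, 73.8, 43.2 and 47.5 CPM at 3 months (log2 change -1.76 ± 0.27, adjusted p = 0.00868; -1.60 without the 6-month library 3, adjusted p = 0.0411). Of the 2043 genes called, 40 were called whichever 1 of the 8 diabetic libraries was left out, 14 higher and 26 lower at 6 months. Besides Itga6 they include among the higher Plin2, Ehhadh, Ypel2 and Lif, and, with Ephb1, among the lower Magi2, Vtcn1 and Kcna6.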
